A study of Rattus norvegicus with 36 samples.

Results

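The fibrillar collagen chains of rat vocal fold (VF) mucosa were followed through wound healing and into cultured VF fibroblasts. The members were Col1a1, Col1a2, Col3a1, Col5a1, Col5a2, Col5a3 and Col11a1, and every probe set annotated with exactly 1 of these gene symbols was kept. This gave 13 probe sets of 7 genes, out of 31042 probe sets and 14217 genes on the Affymetrix whole-genome rat expression array, which measures RNA with short DNA probes grouped into probe sets. Col11a1 had 3 probe sets, Col1a1, Col1a2, Col5a1 and Col5a2 had 2 each, and Col3a1 and Col5a3 had 1 each. On the GRCr8 assembly Col3a1 and Col5a2 are neighbors on chromosome 9, at chr9:54866646-54902578 and chr9:54940768-55090151. The others are on separate chromosomes, Col1a1 at chr10:80380458-80397461, Col1a2 at chr4:33518557-33553484, Col5a1 at chr3:31606475-31755097, Col5a3 at chr8:27580768-27626002 and Col11a1 at chr2:204509136-204702264. Where within each gene the probes lie was not analysed here.

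Fibrillar collagens are the rope-like proteins that give connective tissue its tensile strength. Each molecule is a triple helix of 3 chains, made as a procollagen, folded and hydroxylated in the endoplasmic reticulum, trimmed outside the cell and cross-linked into fibrils. Col1a1 and Col1a2 encode the chains of type I collagen, the bulk of scar and of most connective tissue, and Col3a1 encodes the chain of type III, which is laid down early in wounds. Col5a1, Col5a2 and Col5a3 encode chains of type V and Col11a1 a chain of type XI, minor collagens that start fibrils and limit their diameter, with type XI best known from cartilage. In the VF, collagen forms part of the lamina propria under the epithelium, and its excess after injury stiffens the vibrating layer.

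All animals were male Fischer 344 rats, 120 d old at the start. Post-injury (PI) groups had their VF mucosa stripped on both sides under endoscopy and were harvested 3, 14 or 60 d later, at 123, 134 or 180 d of age. Control groups were untouched rats of the same ages. Each mucosa array held the pooled microdissected mucosae of 4 rats, with 5 PI and 3 control arrays at 3 d, 5 PI and 3 control arrays at 14 d, and 5 PI and 2 control arrays at 60 d by the sample labels. The methods instead describe 4 PI and 3 control arrays at 60 d, and the labels were followed. The 13 fibroblast arrays held passage 1 explant cultures, each from 1 rat of 180 d: 3 of scar fibroblasts treated with 50 nM gp46 siRNA, 3 of scar fibroblasts treated with 50 nM scramble siRNA, 4 of scar fibroblasts taken 60 d PI without siRNA, and 3 of naive fibroblasts from uninjured rats. The labels do not say whether cultures of different groups came from the same rats, and the siRNA targets gp46, the product of Serpinh1, a procollagen chaperone also called Hsp47.

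The values are the authors' log2 signals after robust multi-array averaging, so a difference of 1 is a doubling. The 36 arrays shared 1 distribution of values, with sorted values no more than 0.03 apart and a highest signal of 14.743 in each array, so each signal is relative to the rest of the RNA of its array. Arrays of 1 group correlated at 0.9722 to 0.9969. A set of 3 arrays (PI 3 d replicate 5, control 14 d replicate 3 and PI 60 d replicate 4) deviated from their groups in a common direction, with correlations of their deviations of 0.578, 0.404 and 0.583, and results were also computed without them. A probe set was called at a limma adjusted p under 0.05, with the adjustment over all 31042 probe sets.

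Promoter sequences were matched for 5 of the 7 genes in RefSeq's table on the GRCr8 build. Those of Col1a2, Col5a2, Col5a3 and Col11a1 are shown, for a chain of type I, a type V chain that followed it closely in mucosa, the chain with the steepest change at 3 d PI and the chain that moved least like the rest. Each run goes from 250 bases before to 50 bases after the annotated start, 5′ to 3′ on the strand of the gene. Capitals mark 3 short motifs found on either strand: the CCAAT box, the GC box GGGCGG, and the TATA motif written TATAAA.
Col1a2, chr4:33518307-33518606, plus strand: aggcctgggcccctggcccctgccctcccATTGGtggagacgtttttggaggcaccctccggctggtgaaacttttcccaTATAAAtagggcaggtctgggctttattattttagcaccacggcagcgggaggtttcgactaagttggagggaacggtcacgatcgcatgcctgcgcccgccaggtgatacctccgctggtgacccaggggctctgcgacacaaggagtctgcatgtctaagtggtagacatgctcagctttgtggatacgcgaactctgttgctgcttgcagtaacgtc
Col5a2, chr9:55090102-55090401, minus strand: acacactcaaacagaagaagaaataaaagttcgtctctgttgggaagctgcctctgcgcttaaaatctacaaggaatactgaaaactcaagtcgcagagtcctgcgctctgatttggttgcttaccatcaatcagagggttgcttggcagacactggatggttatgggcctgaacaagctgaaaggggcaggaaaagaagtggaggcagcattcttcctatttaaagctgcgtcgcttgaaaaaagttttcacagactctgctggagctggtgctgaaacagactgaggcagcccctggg
Col5a3, chr8:27625899-27626198, minus strand: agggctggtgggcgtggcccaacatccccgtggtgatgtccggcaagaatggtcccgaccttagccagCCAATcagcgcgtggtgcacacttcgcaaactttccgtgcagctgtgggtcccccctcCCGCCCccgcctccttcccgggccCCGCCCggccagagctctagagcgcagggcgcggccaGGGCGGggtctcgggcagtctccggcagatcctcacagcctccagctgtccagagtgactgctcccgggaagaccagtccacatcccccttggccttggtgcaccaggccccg
Col11a1, chr2:204508886-204509185, plus strand: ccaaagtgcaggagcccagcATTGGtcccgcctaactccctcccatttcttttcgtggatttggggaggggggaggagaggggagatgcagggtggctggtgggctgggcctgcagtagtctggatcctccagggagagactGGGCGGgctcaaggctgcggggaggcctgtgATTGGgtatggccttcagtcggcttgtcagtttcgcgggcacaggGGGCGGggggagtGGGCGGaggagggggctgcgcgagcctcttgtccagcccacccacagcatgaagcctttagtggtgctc
The CCAAT box stood in 3 of the 5 promoters (Col1a2, Col5a3 and Col11a1), against 37.5% of the 33469 promoters in the table. The GC box stood in 3 (Col5a1, Col5a3 and Col11a1), against 33.1%, and the TATA motif only in Col1a2, against 14.2%. Col5a3 and Col11a1 each held the GC box 3 times, and no matches overlapped each other. The window of Col5a2 held none of the motifs and had the lowest GC content of the 5, 47.7%. A match is a description of these letters, and motif content was not compared with the changes in signal. The table's starts for Col5a1, whose window is not shown, and Col5a3 lie inside the span annotated for the gene. Col1a1 and Col3a1 are named only.

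At 3 d PI, all 7 genes rose against age-matched control. Of the 13 probe sets 12 were called higher and none lower, where 11.0% of all probe sets were called higher and 12.0% lower, and the same 12 had every PI array above every control array, where 14.4% of all probe sets did. The median difference over the 13 was 1.78 log2, against -0.01 over all probe sets. In whole mucosa, more cells of a type and more RNA per cell cannot be told apart.

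Col1a1, the gene of the major chain of type I collagen, had signals of 13.67, 13.78, 13.77, 13.73 and 13.99 log2 in the 5 PI arrays and 11.67, 11.62 and 11.19 log2 in the 3 control arrays (probe set 1388116_at). The PI arrays lay close together and far above the controls. The difference was 2.30 log2 (SE 0.15), or 4.91-fold, with a limma adjusted p of 8.77e-10. The other probe set of Col1a1, 1370864_at, gave 5.20-fold (2.38 log2, SE 0.18).

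Col1a2, whose product completes the type I triple helix, read 14.20, 14.34, 14.25, 14.24 and 14.43 log2 in PI and 13, 13.09 and 13.16 log2 in control by 1370155_at. The groups did not overlap, and the difference was 1.21 log2 (SE 0.11), a 2.31-fold rise, with an adjusted p of 7.06e-08. By 1387854_at it was 1.55 log2 (SE 0.11). Col3a1, with the smallest fold among the called probe sets, had 14.46, 14.48, 14.54, 14.32 and 14.39 log2 in PI and 13.62, 13.77 and 13.74 log2 in control. That was a 1.66-fold difference (0.73 log2, SE 0.08, adjusted p = 4.25e-07). Signals of Col1a2 and Col3a1 lay close to the top of the scale, which bounds how far they could rise.

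The type V chains rose together and by unequal amounts. Col5a1 had 12.19, 12.36, 12.39, 12.20 and 12.49 log2 in PI and 10.10, 10.45 and 10.49 log2 in control (1369955_at), a difference of 1.97 log2 (SE 0.12, adjusted p = 2.69e-10). Col5a2 had 13.33, 13.47, 13.47, 13.44 and 13.79 log2 in PI and 11.21, 11.59 and 11.55 log2 in control (1370895_at), a difference of 2.05 log2 (SE 0.14, adjusted p = 9.89e-10). These were 3.93-fold for Col5a1 and 4.15-fold for Col5a2, and their other probe sets gave 3.51-fold and 3.44-fold.

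Col5a3, a type V chain of more restricted expression, showed the steepest rise of the family. Its signals were 10.11, 10.08, 10.65, 10.29 and 10.40 log2 in PI and 6.71, 7.19 and 7.13 log2 in control. Every PI array was far above every control array. The difference was 3.29 log2 (SE 0.14), or 9.80-fold, with an adjusted p of 1.92e-12.

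Col11a1, the type XI chain, was spread widely between arrays of 1 group. By its probe set of highest mean, 1392915_at, it had 8.08, 7.85, 7.20, 8.18 and 7.45 log2 in PI and 6.84, 5.70 and 6.20 log2 in control. All PI arrays were above all controls, and the difference was 1.51 log2 (SE 0.40, adjusted p = 0.00902), and without control replicate 2 the adjusted p was 0.0596. The probe set 1384211_at gave 1.31 log2 (SE 0.43, adjusted p = 0.0331), and the call was lost in 4 of the 8 fits that left out 1 array. The dim probe set 1384931_at, with 3.08 to 3.31 log2 in PI and 3.08 to 3.15 log2 in control, was not called (0.10 log2, adjusted p = 0.301).

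**Figure D1:**
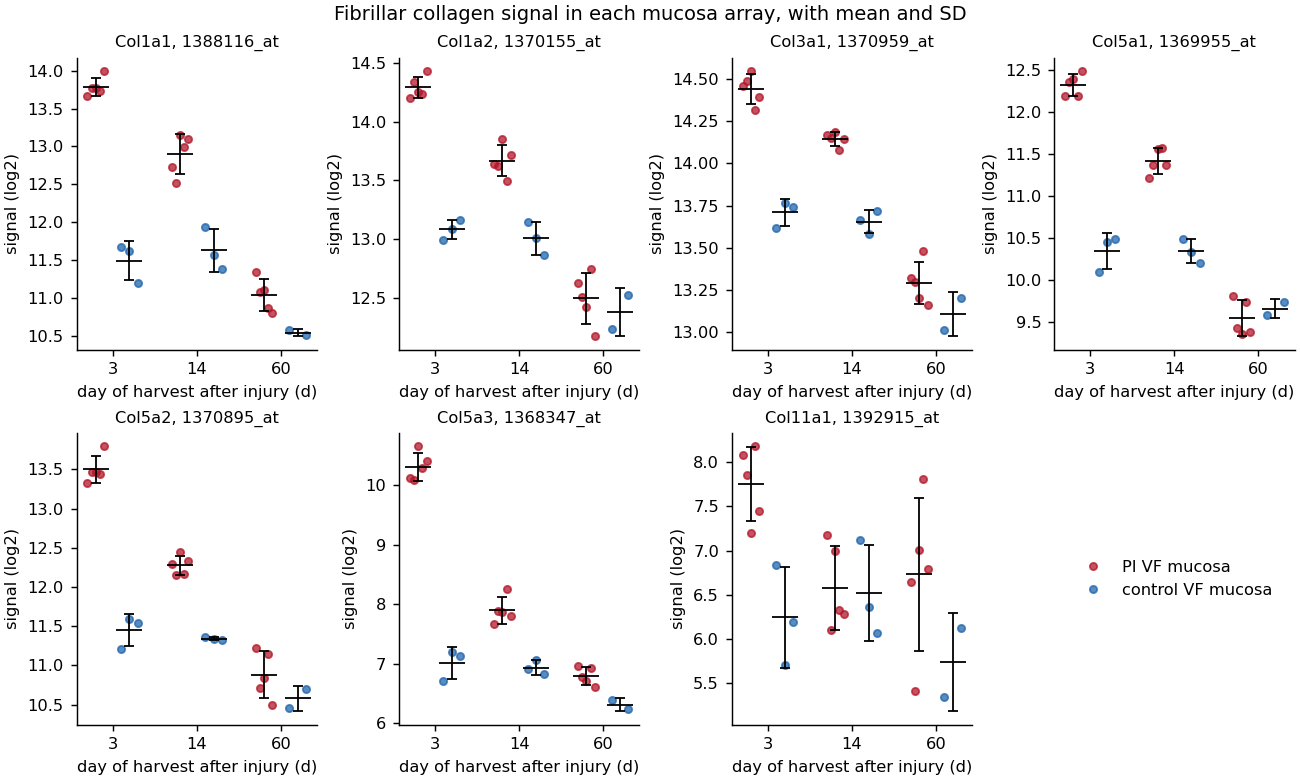
Signal in log2 of each fibrillar collagen gene, by its probe set of highest mean, in each of 23 mucosa arrays by day of harvest. Points are arrays, PI in red and left of control in blue, with horizontal ticks at the mean and bars of 1 SD (n = 5 and 3 arrays at 3 d and 14 d, 5 and 2 at 60 d). PI lies above control at 3 d in all 7 genes and at 14 d in all but Col11a1. At 60 d PI and control arrays overlap except in Col1a1 and Col5a3, and the mean of Col11a1 is 6.73 log2 in PI and 5.74 log2 in control. Each gene has its own scale.

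At 14 d PI, 6 of the 7 genes remained above control, by smaller differences. Of the 13 probe sets 10 were called higher and none lower, where 1.24% of all probe sets were called higher and 0.673% lower, and the same 10 had all PI arrays above all control arrays, where 5.99% of all did. Only the 3 probe sets of Col11a1 were not called. The median over the 13 was 0.94 log2, against -0.01 over all probe sets.

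Col1a1 had the steepest difference at this time, with 12.62, 12.65, 12.87, 12.81 and 12.87 log2 in PI and 11.31, 10.94 and 10.53 log2 in control by 1370864_at. No PI array came near the controls. The difference was 1.84 log2 (SE 0.18), or 3.58-fold, with an adjusted p of 6.72e-06, and 1388116_at gave 2.41-fold (1.27 log2, SE 0.15). The size at 14 d depended on the probe set more than at 3 d.

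Col5a2 had 12.41, 12.56, 12.71, 12.45 and 12.59 log2 in PI and 11.21, 11.22 and 11.31 log2 in control by 1373463_at, a 2.46-fold difference (1.30 log2, SE 0.14, adjusted p = 1.36e-05). Its other probe set, 1370895_at, gave a smaller difference of 0.94 log2, so its place among the type V chains depended on the probe set. Col5a1 was 2.10-fold and 2.16-fold higher by its probe sets 1369955_at and 1376099_at (adjusted p = 3.22e-05 and 1.43e-05). Col5a3 had 7.66, 7.88, 7.86, 8.26 and 7.80 log2 in PI and 6.92, 7.07 and 6.83 log2 in control, a 1.94-fold difference (0.96 log2, SE 0.14, adjusted p = 0.000552). Its groups did not overlap, but the difference was far below that of 3 d. Col1a2 (0.66 and 0.92 log2) and Col3a1 (0.49 log2) were called too, while Col11a1 stood at 0.06 log2 (SE 0.40, adjusted p = 0.992) by 1392915_at, with overlapping groups.

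At 60 d PI no probe set of the family was called, where 0.0129% of all probe sets were called higher and 0.0258% lower. Their median was 0.30 log2, against 0.00 over all, 11 of the 13 differences were above 0, and 6 reached an unadjusted limma p under 0.05. The implementation of the methods' lognormal-normal model called 0 of the 13 as well. The direction depended on which controls were used. Against the controls of all 3 ages pooled, 2 of the 13 differences were above 0 and 11 below it, the median was -0.25 log2, and 9 probe sets changed sign. Col3a1 then stood at -0.25 log2 and Col1a1 by 1388116_at at -0.26 log2, neither called, and the only call was Col5a1 by 1369955_at, lower at -0.63 log2 (adjusted p = 0.00805).

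Col5a3 had 6.96, 6.77, 6.70, 6.92 and 6.61 log2 in PI and 6.39 and 6.23 log2 in control at 60 d, so that every PI array was above both controls. The difference was 0.48 log2, with a 95% interval of 0.15 to 0.81 and an adjusted p of 0.374. Col1a1 had 11.34, 11.08, 11.11, 10.87 and 10.81 log2 in PI and 10.57 and 10.50 log2 in control (1388116_at), which did not overlap either, at 0.50 log2 (95% interval 0.14 to 0.87, adjusted p = 0.415). With the controls pooled the differences were -0.02 log2 for Col5a3 and -0.26 log2 for Col1a1. These and Col5a2 by 1373463_at were the 3 probe sets without overlap between PI and control arrays of 60 d, where 5.56% of all probe sets had every PI array higher. The lowest difference, for Col5a1 by 1369955_at, was -0.12 log2 (95% interval -0.41 to 0.17, adjusted p = 0.865). The highest, for Col11a1 by 1392915_at, was 1.00 log2 and not called. Its groups overlapped, at 5.42 to 7.81 log2 in PI and 5.34 and 6.13 log2 in control.

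**Figure D2:**
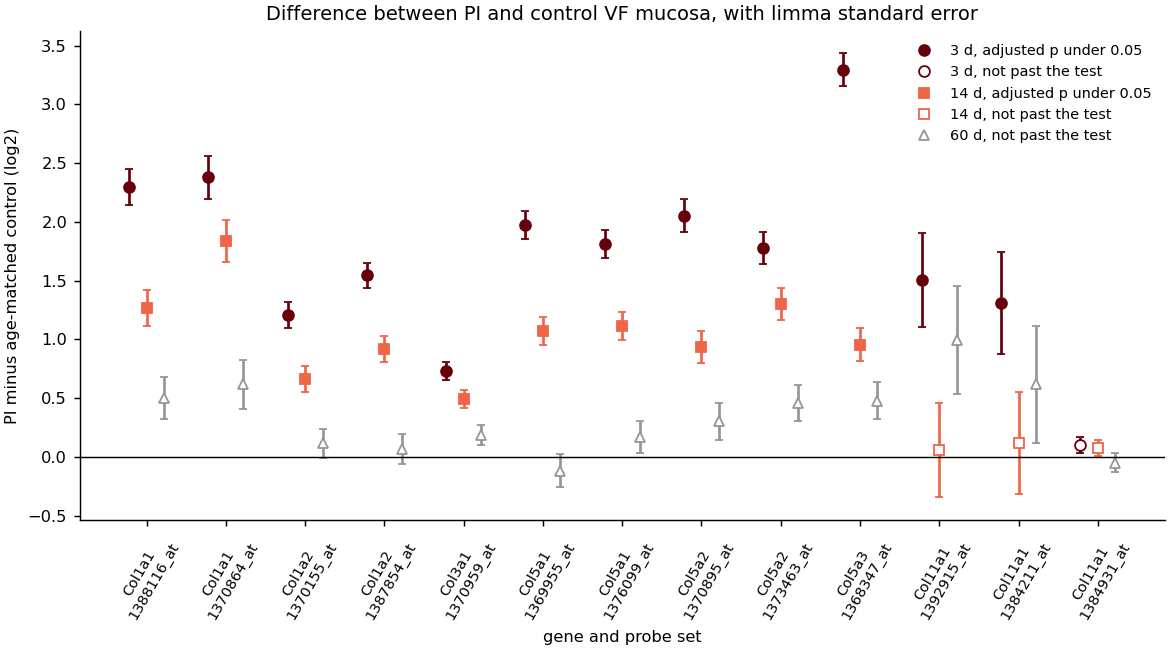
Difference in log2 between PI and age-matched control mucosa for each of the 13 probe sets at 3 d (circles), 14 d (squares) and 60 d (triangles), with limma standard errors. Filled symbols passed an adjusted p of 0.05 and open symbols did not. The 3 d difference is the highest of the 3 times for every probe set, at 3.29 log2 for Col5a3, and the 60 d symbols are all open.

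The size of the injury difference itself was compared between times by contrasts of contrasts. Against 3 d it was smaller at 14 d for 7 probe sets of 5 genes (3.88% of all probe sets called lower and 2.70% higher) and smaller at 60 d for 10 probe sets of 6 genes (5.95% lower and 5.41% higher). Between 60 d and 14 d only Col5a1 passed, by 1369955_at, at -1.19 log2 (SE 0.18, adjusted p = 0.0124), where 0.0548% of all probe sets were called lower and 0% higher. Col5a3 gave the steepest decline, with -2.34 log2 for 14 d against 3 d (SE 0.20, adjusted p = 4.62e-07) and -0.48 log2 for 60 d against 14 d (SE 0.21, adjusted p = 0.76). Col1a1 by 1370864_at had values of -0.54 log2 for 14 d against 3 d (SE 0.25, adjusted p = 0.24) and -1.22 log2 for 60 d against 14 d (SE 0.27, adjusted p = 0.173), neither past the test. No probe set of Col11a1 passed in any of these 3 contrasts.

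Among the PI groups alone, the signals fell with time. PI 14 d against PI 3 d had 11 probe sets of all 7 genes called lower (14.8% of all probe sets, with 15.8% higher), and the same number did not overlap (12.4%). PI 60 d against PI 14 d had 10 called lower, all but Col11a1, where 1.20% of all were called lower and 0.161% higher, and 10 that did not overlap (1.71%). PI 60 d against PI 3 d had 12 called lower (16.3%, with 17.8% higher) and 10 that did not overlap (10.1%), and the F test over the 3 PI groups called 11 of the 13, against 34.0% of all. Col5a1 by 1369955_at was at 12.19 to 12.49 log2 at 3 d, 11.22 to 11.57 log2 at 14 d and 9.36 to 9.82 log2 at 60 d, without overlap between any of the 3 groups. Its difference of 60 d against 14 d was -1.87 log2 (SE 0.11, adjusted p = 1.12e-09), and by 1376099_at it was -1.79 log2, also at an adjusted p of 1.12e-09.

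The controls differed with age too. In control mucosa of 60 d, Col3a1 read 13.02 and 13.20 log2, against 13.62, 13.77 and 13.74 log2 in controls of 3 d and 13.66, 13.58 and 13.72 log2 in controls of 14 d. The difference of 60 d from the other 2 ages was -0.57 log2 (SE 0.08, adjusted p = 0.0112). Col5a1 by 1376099_at (-0.93 log2, adjusted p = 0.0112) and Col1a1 by 1388116_at (-1.02 log2, adjusted p = 0.0357) were called as well, making 3 of 13, where 0.0129% of all probe sets were called lower and 0.0258% higher. The other 7 probe sets of types I, III and V lay between -0.64 and -0.87 log2 with adjusted p between 0.0551 and 0.165. Without the 3 deviating arrays 9 were called, and in a fit of the control arrays alone 0 were. Between controls of 14 d and 3 d no probe set was called, in the family or among all (0%), and 0 of the 13 had an unadjusted limma p under 0.05. The limma F test over the 3 control groups called 0 of 13 and 0% of all, the lowest adjusted p in the family being 0.0512.

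Unequal change within the family was measured in each array as the signal of a chain minus that of Col1a1. Over 6 chains and 7 comparisons, 15 of 42 differences had an exact two-sided permutation p under 0.05 before adjustment and 0 after it, with the lowest adjusted p at 0.0556. The smallest p possible was 0.0952 for injury at 60 d, 0.0571 for scar against naive and 0.1 for gp46 against scramble. Those comparisons could not reach 0.05 with so few arrays, though they counted in the adjustment. Relative to Col1a1, Col3a1 differed by -1.57 log2 at 3 d PI (SD 0.16 over 5 PI arrays and 0.31 over 3 control arrays, exact permutation p = 0.0357, the smallest that 5 against 3 arrays allow, adjusted p = 0.1). Col1a2 differed in the same direction, by -1.08 log2 (exact permutation p = 0.0357, adjusted p = 0.1). Col5a3 differed in the opposite direction, by 1.00 log2, at the same p and adjusted p. In controls of 3 d, Col3a1 and Col1a2 already averaged 13.71 and 13.08 log2, against 11.49 log2 for Col1a1. Below the highest signal of 14.743 log2 neither could match the rise of Col1a1, so the sign of their differences decides nothing about the chains. Between PI 14 d and PI 3 d the signal of Col5a3 minus that of Col1a1 differed by -1.52 log2 (exact permutation p = 0.00794, the smallest for 5 against 5 arrays, adjusted p = 0.0556), and for Col5a1 minus Col1a1 the difference was -0.01 log2 (exact permutation p = 0.873). With the probe set of median intensity, the choice in the methods, 7 of the 42 differences passed after adjustment. That rule changed the probe set of Col11a1 only, and 6 of the 7 kept their difference and their exact permutation p of 0.00794, with the adjusted p at 0.0476 in place of 0.0556. The step across the threshold thus came from the p-values of a single gene.

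Across the 23 mucosa arrays the chains of types I, III and V followed each other, with Pearson's r between 0.88 and 0.99 for pairs of genes. Col11a1 stood at 0.55 to 0.65 with the others. These values describe arrays that share the injury groups and the normalization. The genes most like the chains of types I, III and V were other matrix genes. Col6a1, a chain of the beaded-filament type VI collagen, reached 0.99 with both Col1a2 and Col5a1, Col6a3 reached 0.99 with Col5a2, and Sparc, a collagen-binding matrix protein, reached 0.98 with Col1a1. Col5a3 was most like Srpx2 at 0.99, followed by Adamts12 and Plod2, the lysyl hydroxylase of the collagen telopeptides, at 0.98. Col11a1 was most like Col8a1, a short-chain collagen, at 0.96, and then Col27a1, another fibrillar chain, at 0.88.

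Because type XI collagen is a cartilage collagen, Col11a1 was set beside the mean of 6 cartilage markers (Col2a1, Acan, Comp, Matn1, Cnmd and Hapln1). In the PI 60 d arrays Col11a1 had 6.64, 5.42, 7.01, 7.81 and 6.79 log2, and the cartilage mean was 6.94, 5.89, 7.93, 8.36 and 7.65 log2. The array highest in one was highest in the other, and the same held for the lowest. The arrays of each control group also stood in the same order by both measures. Among the PI 14 d arrays neither the highest nor the lowest matched. In the PI 3 d arrays, where all 5 values of Col11a1 were above 7, the cartilage mean was 7.88, 6.40, 5.67, 8.06 and 5.34 log2, against 6.98, 6.09 and 6.74 log2 in their controls, so it overlapped while Col11a1 did not. Over the 23 mucosa arrays r was 0.56 for Col11a1 and -0.21 for Col1a1. Over the 13 fibroblast arrays r was 0.44 for Col11a1 and 0.54 for Col1a1. None of the 6 cartilage markers was called at any time, their median difference being 0.09, -0.52 and 1.06 log2 at 3, 14 and 60 d, and their part in the values of Col11a1 was not tested.

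**Figure D3:**
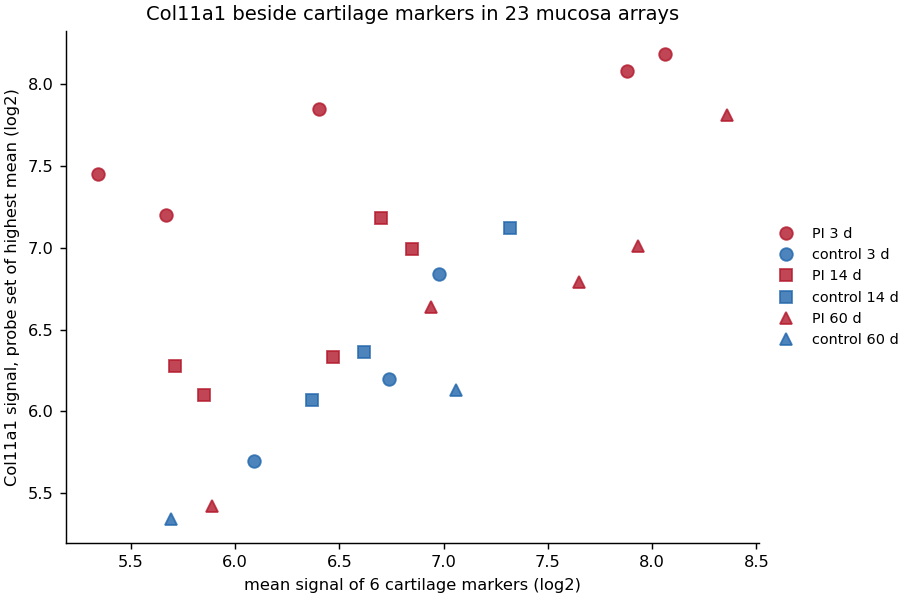
Signal of Col11a1 (vertical axis, log2, 1392915_at) against the mean signal of 6 cartilage markers (horizontal axis, log2) in 23 mucosa arrays. Each point is an array, red for PI and blue for control, with circles for 3 d, squares for 14 d and triangles for 60 d. The PI 60 d arrays run with the cartilage mean from 5.89 to 8.36 log2. Each control group does so over a narrower range. PI 3 d arrays are at 7.20 log2 or more even where the cartilage mean is near 5.34 log2.

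Markers of other cells moved with the injury groups. At 3 d PI, 4 of 6 skeletal muscle genes and 3 of 3 Schwann cell genes were called lower, where 12.0% of all probe sets were. Array means were 12.14 to 12.90 log2 in PI and 12.78 to 13.43 log2 in control over the 6 muscle genes, and 8.36 to 8.85 log2 in PI and 9.13 to 9.58 log2 in control over the 3 Schwann cell genes. Of 7 fibroblast markers 2 were called higher (Thy1 and Lum), where 11.0% of all probe sets were, with array means of 12.06 to 12.17 log2 in PI and 11.64 to 11.97 log2 in control. Of 3 myofibroblast markers Acta2 and Tagln were called higher, with array means of 9.67 to 10.10 log2 in PI and 8.83 to 9.39 log2 in control. None of these 4 lists had a called gene at 14 d or 60 d, but the fibroblast mean at 60 d was 11.31 to 11.52 log2 in PI and 11.59 to 11.60 log2 in control. The mean of 5 leukocyte markers in every PI array lay below every control array at both later times, at 8.59 to 9.19 log2 in PI and 9.27 to 9.46 log2 in control at 14 d, and 8.51 to 9.01 log2 in PI and 9.42 to 9.84 log2 in control at 60 d, with none of the 5 called at any time. Of 4 bone markers Ibsp and Dmp1 were called higher at 3 d, with array means of 5.91 to 6.08 log2 in PI and 5.32 to 5.58 log2 in control, and at 14 d the means were 5.58 to 5.82 log2 in PI and 5.43 to 5.52 log2 in control. Of 3 endothelial markers Pecam1 was called higher at 3 d and 14 d, where 11.0% and 1.24% of all probe sets were. The mean of the 3 was higher in every PI array than in every control array at all 3 times. At 60 d that mean was 9.38 to 10.18 log2 in PI and 9.25 to 9.30 log2 in control. The muscle mean at 60 d was 13.30 to 13.53 log2 in PI and 13.21 to 13.28 log2 in control. Of 6 epithelial markers Krt5 and Krt14 were called higher and Krt4 lower at 3 d, with overlapping array means. Their part in the collagen values was not tested.

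Most of the measured genes that fold, trim and cross-link procollagen were called higher at 3 d PI, where 11.0% of all probe sets were called higher and 12.0% lower. Of 16 measured folding and modification genes 11 were called higher and none lower, with a median of 0.62 log2, against -0.01 over all probe sets. Plod2 rose by 3.02 log2 (SE 0.16), P4ha3, a subunit of prolyl hydroxylase, by 1.74 log2, Fkbp10, a chaperone, by 1.59 log2, and Serpinh1 by 1.40 log2. Of 6 propeptide cleavage and cross-linking genes 5 were called higher, with a median of 1.63 log2, among them the cross-linking oxidases Loxl2 at 2.75 log2 and Lox at 2.43 log2, the procollagen C-proteinase Bmp1 at 1.64 log2 and its enhancer Pcolce at 1.62 log2. Of 6 fibril-associated and microfibrillar collagens 5 rose, led by Col6a3 at 1.77 log2. The highest limma adjusted p among these named genes was 1.03e-06, for P4ha3.

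The binding partners and the degrading side were less uniform at 3 d PI, where 11.0% of all probe sets were called higher and 12.0% lower. Among 6 fibril-binding proteoglycans only Bgn and Lum rose, by 0.37 and 0.36 log2. Of 9 genes of collagen breakdown 5 were higher and 1 lower. The collagenase Mmp13 rose by 3.51 log2 (SE 0.54), Fap by 1.78 log2 and the inhibitor Timp1 by 1.73 log2, and the inhibitor Timp3 fell by 1.63 log2 (SE 0.14, adjusted p = 3.57e-08). Of 5 receptor genes the integrin chain Itga11 rose by 0.59 log2, and the discoidin domain receptors Ddr1 and Ddr2 fell by 0.34 and 0.94 log2. Of the 4 other fibrillar chains only Col27a1 rose, by 0.46 log2 (adjusted p = 0.0396), and Col2a1, Col11a2 and Col24a1 were not called.

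At 14 d PI, where 1.24% of all probe sets were called higher and 0.673% lower, 3 of the 16 folding genes (Plod2, Serpinh1 and Fkbp10), 2 of the 6 cleavage and cross-linking genes (Lox at 1.16 log2 and Bmp1 at 0.52 log2) and 4 of the 6 fibril-associated collagens (Col6a3, Col6a1, Col14a1 and Col6a2, at 0.62 to 0.92 log2) were called higher. Timp3 was again lower, by 0.85 log2, and no gene of the proteoglycan, receptor or other fibrillar lists was called. At 60 d PI no measured gene of the 7 lists was called, with Lox at 0.45 log2 (adjusted p = 0.582).

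In the cultures the siRNA target was checked first. Serpinh1 by 1371310_s_at had 12.43, 12.64 and 12.67 log2 with gp46 siRNA and 12.98, 12.96 and 12.92 log2 with scramble siRNA. All 3 gp46 cultures were lower, by 0.38 log2 (SE 0.10, 95% interval of the difference -0.60 to -0.16). The difference did not pass the limma test over all probe sets, with an adjusted p of 1. The dim probe set 1369009_at had 5.14, 5.02 and 5.08 log2 with gp46 siRNA and 5.07, 5.06 and 5.38 log2 with scramble siRNA, which overlapped. Untreated scar cultures had 13.38, 13.56, 13.42 and 13.16 log2 by 1371310_s_at, so every scramble culture also lay below them.

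No fibrillar collagen probe set was called between gp46 and scramble cultures, where 0% of all probe sets were called in either direction, and 0 of the 13 reached an unadjusted limma p under 0.05. All 13 overlapped between the groups, where 3.70% of all probe sets had every gp46 culture lower and 3.32% every one higher. Col1a1 had 13.79, 13.79 and 13.67 log2 with gp46 siRNA and 13.79, 13.73 and 13.81 log2 with scramble siRNA (1388116_at), a difference of -0.03 log2 with a 95% interval of -0.25 to 0.19. For Col1a2 by 1370155_at it was 0.001 log2 (interval -0.15 to 0.16), for Col3a1 0.03 log2 (interval -0.17 to 0.24) and for Col5a2 by 1370895_at 0.01 log2 (interval -0.15 to 0.17). Wider intervals belonged to Col5a3, at -0.13 log2 (interval -0.91 to 0.66), and to Col11a1 by 1384931_at, at -0.61 log2 (interval -1.63 to 0.40).

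Col11a1 had the largest difference between scar and naive fibroblasts, by its dimmest probe set. Its probe set 1384931_at had 6.80, 6.43, 5.38 and 5.02 log2 in scar cultures and 7.81, 7.89 and 7.30 log2 in naive cultures. The groups did not overlap, and the difference of -1.76 log2 (SE 0.44, adjusted p = 0.0483) was the only call among the 13, where 2.15% of all probe sets were called lower and 1.42% higher. By 1392915_at Col11a1 had 12.34, 12.36, 11.15 and 11.32 log2 in scar and 12.76, 12.60 and 12.49 log2 in naive cultures, at -0.82 log2 (SE 0.26, adjusted p = 0.112), and by 1384211_at it was -0.86 log2 (SE 0.31, adjusted p = 0.156). All 3 of its probe sets lay lower in every scar culture, where 8.56% of all probe sets did. The call of 1384931_at was lost in 6 of the 7 fits that left out 1 culture, with adjusted p between 0.0261 and 0.177.

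The chains of types I and III lay close together in scar and naive cultures. Col1a1 differed by 0.10 log2 (95% interval -0.11 to 0.31) by 1388116_at and Col3a1 by -0.02 log2 (interval -0.21 to 0.17). Col1a2 differed by 0.05 log2 by 1370155_at, and 2 scar cultures, at 14.74 log2, sat on the top of the scale. Col5a1 by 1369955_at had 12.65, 12.63, 12.59 and 12.07 log2 in scar and 11.87, 11.89 and 12.24 log2 in naive cultures. Scar replicate 4 fell among the naive values and the other 3 lay above them, and the difference of 0.48 log2 (SE 0.15, interval 0.15 to 0.82) had an adjusted p of 0.108. Without scar replicate 4 it was 0.62 log2 (adjusted p = 0.0137). Col5a3 had 9.46, 9.57, 9.25 and 8.18 log2 in scar and 8.37, 7.56 and 8.89 log2 in naive cultures, again with replicate 4 low, at 0.84 log2 (SE 0.34, adjusted p = 0.212), and 1.15 log2 without that culture (adjusted p = 0.0276). The myofibroblast marker mean was 12.98 to 13.46 log2 in scar and 12.02 to 12.43 log2 in naive cultures, with Cnn1 called higher in scar (1.86 log2, adjusted p = 0.00281), and the skeletal muscle mean reached 9.77 log2 in a scar culture, against 7.06 to 8.34 log2 in naive cultures. Among the pathway lists, Col14a1 was called higher in scar (0.92 log2, adjusted p = 0.0166) and the collagenase Mmp14 lower (-0.41 log2, adjusted p = 0.0363), and no other measured gene was called. The part of these in the collagen values was not tested.

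**Figure D4:**
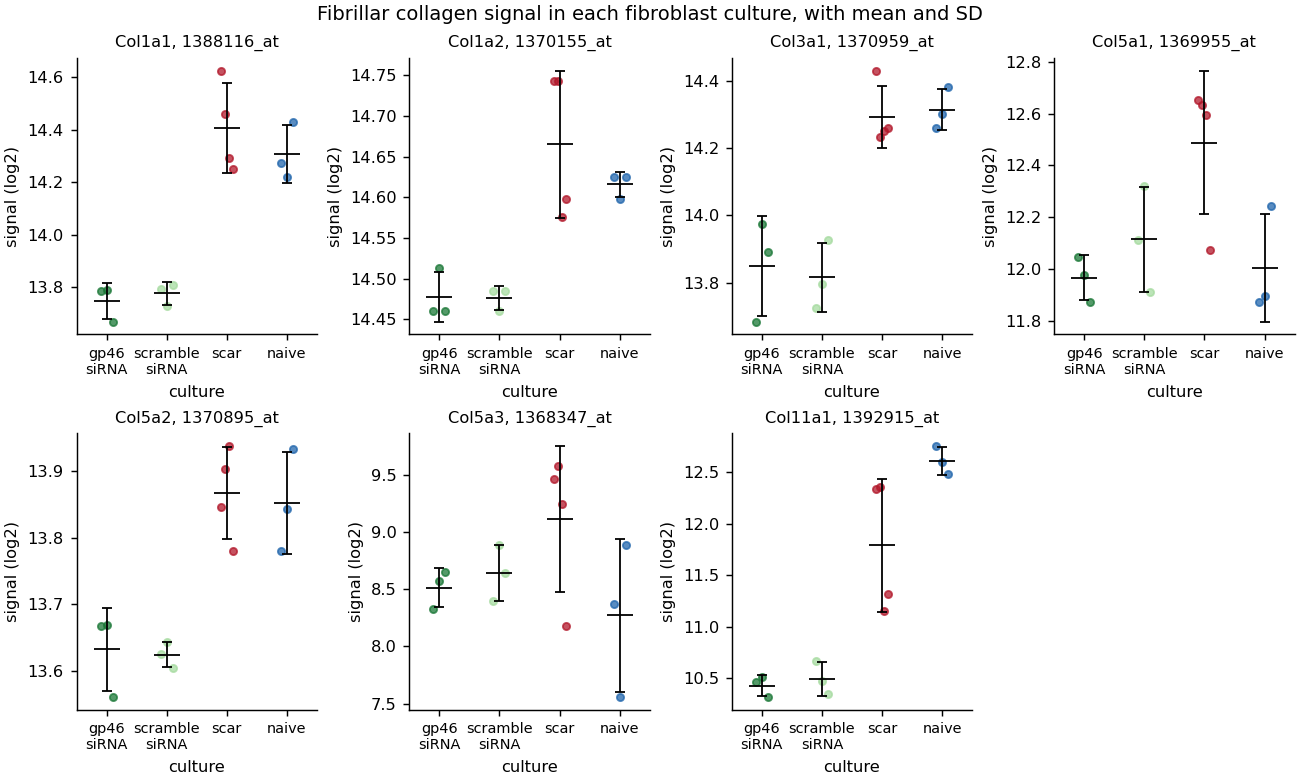
Signal in log2 of each fibrillar collagen gene, by its probe set of highest mean, in each of 13 fibroblast cultures. Points are cultures, with horizontal ticks at the mean and bars of 1 SD (n = 3 gp46 siRNA, 3 scramble siRNA, 4 scar and 3 naive). The siRNA groups overlap in every gene, Col11a1 is highest in naive cultures at 12.49 to 12.76 log2, and each gene has its own scale.

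The scramble cultures were scar fibroblasts with a control siRNA, and they differed from untreated scar fibroblasts in the family. Of the 13 probe sets 8 were called lower and none higher, where 10.8% of all were called lower and 11.9% higher, and 8 did not overlap, where 14.0% of all had every scramble culture lower. Col11a1 had 10.67, 10.47 and 10.34 log2 in scramble and 12.34, 12.36, 11.15 and 11.32 log2 in scar cultures, a difference of -1.30 log2 (SE 0.26, adjusted p = 0.00371). Col1a1 had 13.79, 13.73 and 13.81 log2 in scramble and 14.62, 14.46, 14.29 and 14.25 log2 in scar cultures (1388116_at), at -0.63 log2 (SE 0.10, adjusted p = 0.000616). Col3a1 was lower by 0.48 log2 (SE 0.09, adjusted p = 0.00221). In a fit of these 2 groups alone 4 probe sets were called. The myofibroblast marker mean differed too, at 11.43 to 11.92 log2 in scramble and 12.98 to 13.46 log2 in scar cultures, and its part in the result was not tested.

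Between naive fibroblasts and control mucosa of 60 d, all 13 probe sets were higher in the cultures, where 35.9% of all were called higher and 21.0% lower, and none overlapped, where 46.4% of all had every culture higher. Col11a1 differed most, with 12.76, 12.60 and 12.49 log2 in naive cultures and 5.34 and 6.13 log2 in mucosa by 1392915_at, a difference of 6.88 log2 (SE 0.46, adjusted p = 7.08e-14). Col1a1 was 13.62-fold higher by 1388116_at and Col3a1 2.31-fold higher, the smallest difference of the 13. Col3a1 already averaged 13.11 log2 in this mucosa, so the highest signal of 14.743 log2 bounds how far it could differ. Cell makeup differed between these samples: the mean of 6 epithelial markers was 5.75 to 5.82 log2 in naive cultures and 13.12 to 13.13 log2 in mucosa, and that of 6 cartilage markers 5.35 to 6.15 log2 in naive cultures and 5.69 to 7.06 log2 in mucosa. Over all 4 culture groups the epithelial mean was 5.53 to 5.90 log2, the leukocyte mean 4.85 to 5.50 log2 and the fibroblast marker mean 12.54 to 13.02 log2.

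By group mean, the order of levels over the 10 groups differed between genes. Col5a3 was highest in PI 3 d mucosa (10.30 log2), followed without overlap by scar fibroblasts (9.11 log2). Col3a1 was highest in PI 3 d mucosa too (14.44 log2) but overlapped naive fibroblasts (14.31 log2). Col1a1, Col1a2, Col5a1 and Col5a2 had their highest means in scar fibroblasts, overlapping the group next in order by each probe set. All 3 probe sets of Col11a1 had their highest mean in naive fibroblasts, without overlap with scar fibroblasts, which came next. The lowest means were in 60 d control mucosa, except by 1369955_at of Col5a1 and 1384931_at of Col11a1, which were lowest in PI 60 d mucosa. Neighbors in the lower part of the order overlapped for most probe sets, and PI 60 d and control 60 d mucosa did not for Col5a3, Col1a1 by 1388116_at and Col5a2 by 1373463_at. Across the 13 cultures Col11a1 followed Col1a1 (r = 0.88) and Col1a2 (r = 0.85), and Col5a3 followed Col5a1 (r = 0.84) more than Col3a1 (r = 0.22) or Col11a1 (r = 0.07), which describes arrays that share the 4 groups.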

How the data were processed

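RNA was measured on Affymetrix whole-genome rat arrays, and the authors deposited log2 signals made by robust multi-array averaging with the affy package, so values are background-corrected, quantile-normalized and summarized per probe set. Of 31099 probe sets, 57 array controls were removed and 31042 tested, of which 20826 carried 1 gene symbol, 436 several and 9780 none. Mucosa and fibroblast arrays were fitted separately by group with limma 3.58.1 in R 4.3.3, and jointly for naive fibroblasts against mucosa, with Benjamini-Hochberg adjustment over all probe sets and a threshold of 0.05. Differences to Col1a1 were tested by exact two-sided permutation (scipy 1.17.1, Python 3.11.15), and figures used matplotlib 3.10.9. The lognormal-normal model of the methods was rewritten for this work (posterior over 0.95). Replicates are separate pools or cultures by the labels, and replicate numbers were not treated as pairs. List genes were represented by the probe set of median intensity, naming up to 4 called members with the largest change per list and comparison. For each member the 3 most correlated genes were named. Alternatives covered the fit, filters, weights, controls, probe sets, normalization and left-out arrays. Scripts were tested on simulated data. The members and lists were chosen with earlier results of these data known. Array number limits the precision.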

Additional observations from a re-analysis of the deposited data

Results flagged for a closer look

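Of 52 combinations of a group of 4 or 5 arrays and a probe set, 3 had an array far from the others, and chance alone picks out about 1 in 20. All 3 were in scar fibroblasts. Scar replicate 4 had 12.07 log2 for Col5a1 (1369955_at), below the other cultures at 12.59 to 12.65 log2, and 14.08 log2 for Col1a2 (1387854_at), below the others at 14.23 to 14.26 log2. Scar replicate 1 had 14.43 log2 for Col3a1, above the others at 14.23 to 14.26 log2.

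The injury difference changed between times past the limma test in 18 contrasts. At 14 d against 3 d it was -1.02 log2 for Col1a1 (1388116_at), -0.55 and -0.63 log2 for Col1a2, -0.90 and -0.70 log2 for Col5a1, -1.12 log2 for Col5a2 (1370895_at) and -2.34 log2 for Col5a3. At 60 d against 14 d it was -1.19 log2 for Col5a1 (1369955_at). At 60 d against 3 d it was -1.76 and -1.79 log2 for Col1a1, -1.09 and -1.48 log2 for Col1a2, -0.54 log2 for Col3a1, -2.09 and -1.64 log2 for Col5a1, -1.75 and -1.32 log2 for Col5a2, and -2.81 log2 for Col5a3.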

How the results depend on the processing

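Counts below are probe sets called of the 13. At 3 d PI they were 10 to 12 (12 as reported) when single arrays were left out, at 14 d 10 in each case and at 60 d 0. Leaving out single arrays gave 4 to 7 for the injury difference of 14 d against 3 d (7 as reported), 0 to 4 for that of 60 d against 14 d (1 as reported), 1 to 7 for control 60 d against the earlier controls (3 as reported), 0 to 2 for time in control (0 as reported), 0 to 3 for scar against naive fibroblasts (1 as reported) and 4 to 9 for scramble against scar fibroblasts (8 as reported). Array weights gave 10 for control 60 d, 5 for the injury difference of 60 d against 14 d, 4 for scar against naive and 10 for time in control. Leaving out dim probe sets gave 5 for control 60 d, 2 for 60 d against 14 d and 0 for scar against naive. Without the 3 deviating arrays the counts were 9 for control 60 d, 2 for 60 d against 14 d and 3 for time in control. Fits of the groups alone gave 0 for control 60 d, 0 for scar against naive and 4 for scramble against scar, and a robust trended prior gave 0 for scar against naive. Pooled controls gave 1 at 60 d PI. With 1 probe set per gene, 4 genes were called for control 60 d (2 by the same probe sets when all were fitted) and 1 for time in control (0 when all were fitted). The probe set of median intensity gave 7 unequal changes (0 as reported). The lognormal-normal model called 11, 10 and 0 at 3, 14 and 60 d. No called value changed sign, 65 values that were not called did, 9 of them at 60 d PI with pooled controls, and the cause of these shifts was not tested.

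Replicate numbers did not pair the arrays, with correlations of deviations between -0.161 and 0.258 for PI and control arrays. With the replicate number as a block, 12, 10 and 0 were called at 3, 14 and 60 d PI, 0 for control 60 d, 0 for scar against naive and 5 for scramble against scar. The gp46 and scramble cultures of the same number correlated at 0.346, 0.09 and 0.435, and the block called 0. Whether such cultures shared a rat is not in the labels, and their intervals above are unpaired.

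Of 3338 values of single probe sets under an alternative, 3197 kept their side of the threshold, 60 gained a call and 81 lost one. Counts over all probe sets moved more. At 3 d PI 7135 were called, against 4650 without dim probe sets and 13977 with array weights. At 14 d 595 were called (258 to 2680 under the alternatives that moved it), at 60 d 12 (0 to 1336), for scar against naive 1108 (70 to 1950), for the injury difference of 14 d against 3 d 2042 (1276 to 7599), of 60 d against 3 d 3525 (1640 to 7889) and of 60 d against 14 d 17 (4 to 67). PI 60 d against PI 14 d gave 424 (245 to 1153), control 60 d 12 (0 to 204), control 14 d against 3 d 0 (1 to 283), time in control 0 (8 to 523) and scramble against scar 7075 (2388 with the block). Without dim probe sets PI 14 d against 3 d gave 6196 of 9489, PI 60 d against 3 d 6935 of 10588, time in PI 6803 of 10560 and naive fibroblasts against mucosa 10038 of 17657.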
